A study of Mus musculus with 8 samples.

Results

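The immediate early response genes were examined in hearts of WT and Mettl3 KO mice. They were 10 genes, Fos, Fosb, Jun, Junb, Egr1, Klf4, Nr4a1, Myc, Ier2 and Ier3, taken by symbol from a table of 23045 genes. The rule used no measured value, but the members were chosen with earlier results of these data known. All 10 reached the lowest mean value for a test, which was 1, and were among the 20313 genes tested. None of the 10 passed the test between genotypes, beside 7.91% of all tested genes. Every one of them had a log2 fold change above 0, beside 48.2% of all tested genes. The members share libraries, so that this is not 10 separate observations. Klf4 was at 0.01, and below 0 with limma voom on the deposited values and without any of 3 single libraries. With all 8 libraries, the largest log2 fold changes were those of Myc, Nr4a1 and Ier3. The members also differed from library to library. For 8 of the 10 the spread over the WT libraries was larger than that over the Mettl3 KO libraries, beside 47.9% of all tested genes.

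Total RNA of hearts had been sequenced in 4 WT and 4 Mettl3 KO libraries. Both genotypes were homozygous for a loxP-flanked Mettl3 gene (Mettl3 lox/lox), the gene of the methyltransferase that places N6-methyladenosine on RNA. Only the Mettl3 KO hearts carried the αMHC-MerCreMer transgene, a tamoxifen-activated Cre recombinase that is made in cardiomyocytes, so that the other cells of the heart kept the gene. Per the study's methods, mice of both genotypes were 10 to 16 weeks old when they received tamoxifen on 7 consecutive days, and the interval from the last injection to harvest was not given in the sources used here. Because WT hearts lacked the transgene, an effect of Cre and an effect of Mettl3 loss cannot be told apart. The labels do not say that the libraries came from separate mice, so p-values measure the spread between these libraries. In heart tissue, fewer cells of a type and less RNA per cell cannot be told apart.

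Immediate early genes are transcribed within minutes of a stimulus such as a growth factor, stretch, calcium entry or tissue handling, and they need no new protein synthesis. SRF with its ternary complex partners, CREB and MAP kinases switch them on, and unstable mRNAs together with induced phosphatases and repressors switch them off again. In the heart they are known for their response to pressure load, ischemia and adrenergic stimulation, and cardiomyocytes, fibroblasts and endothelial cells can all express them.

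Normalized read counts summed to between 2839589 and 2881849 per WT library and between 2840184 and 2916986 per Mettl3 KO library. These are counts divided by a size factor of each library. In the fit, 1607 of all tested genes (7.91%) had an adjusted p under 0.05, of which 958 (4.72%) were higher and 649 (3.19%) lower in Mettl3 KO. The labels were checked with the targeted gene and the transgene. Mettl3 had 105, 133, 118 and 107 in WT, against 74, 68, 69 and 78 in Mettl3 KO hearts, with no overlap (log2 fold change -0.67). Esr1, whose sequence is part of MerCreMer, had 13 to 20 in WT, against 693 to 851 in Mettl3 KO. Cardiomyocyte markers were abundant in every library, with summed values of 19931 to 20981 in WT, against 18368 to 20657 in Mettl3 KO for Myh6, Tnnt2, Tnni3, Actc1, Myl2 and Ryr2.

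Stretches before the start sites of 4 members are shown because they carry, close to the start, the letters TGACG, the core of the cAMP response element through which CREB acts. Promoter windows from RefSeq (build GRCm38.p6) matched 7 of the 10 members: Fos, Fosb, Jun, Junb, Ier3, Nr4a1 and Klf4. Each line below gives 120 bases on the strand of the gene, 5′ to 3′, from 135 to 16 bases before the start, with TGACG on either strand in capitals (CGTCA where it lies on the other strand). In GRCm38.p6 the stretches are chr12:85473755-85473874 (plus strand) for Fos, chr7:19310061-19310180 (minus strand) for Fosb, chr8:84978764-84978883 (minus strand) for Junb and chr15:101266711-101266830 (plus strand) for Nr4a1.
Fos: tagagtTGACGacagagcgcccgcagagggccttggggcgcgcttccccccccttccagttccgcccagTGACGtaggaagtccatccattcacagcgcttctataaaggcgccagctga
Fosb: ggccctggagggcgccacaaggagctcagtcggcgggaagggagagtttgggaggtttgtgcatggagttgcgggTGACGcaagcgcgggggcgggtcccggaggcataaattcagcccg
Junb: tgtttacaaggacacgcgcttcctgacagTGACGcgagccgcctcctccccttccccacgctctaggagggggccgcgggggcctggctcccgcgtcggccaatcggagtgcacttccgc
Nr4a1: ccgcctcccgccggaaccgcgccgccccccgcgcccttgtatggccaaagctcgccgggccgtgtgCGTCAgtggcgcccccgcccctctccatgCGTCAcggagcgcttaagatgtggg

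The full windows ran from 250 bases before the start to 50 bases after it. Over the full windows, TGACG on either strand was found in 5 of the 7 members (Fos, Fosb, Junb, Nr4a1 and Klf4) and in 20.8% of 32851 promoters of the same length. The full element TGACGTCA, which contains TGACG, was found in 0 of the 7 and in 1.79% of all promoters. An EGR site (GCGTGGGCG or GCGGGGGCG, either strand) was found in Fosb, Nr4a1 and Klf4 and in 3.47% of all promoters. TATAAA, on either strand, was found in Fos and Junb and in 13.6% of all. The CArG box, the element bound by SRF, was found in 0 of the 7 and in 1.63% of all, and the AP-1 site (TGACTCA, which reads TGAGTCA on the other strand) in 0 of the 7 and in 5.20% of all. These matches describe letters in a window and not binding, and sites outside the window were not searched.

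Levels can be compared between genes only per length. Per kilobase of exon, over all 8 libraries, Jun had the highest normalized read count (85.3 ± 8.01, SD, n = 8), followed by Klf4 (71.0 ± 10.05), Ier3 (39.3 ± 9.98), Egr1 (21.8 ± 3.17), Junb (18.5 ± 4.04), Ier2 (15.4 ± 2.74), Nr4a1 (10.7 ± 3.42), Fos (7.71 ± 2.43), Myc (5.43 ± 2.61) and Fosb (0.641 ± 0.227). In that order, the libraries of Klf4 lay above those of Ier3, those of Ier3 above those of Egr1, and those of Myc above those of Fosb, whereas every other pair of neighbours overlapped. Jun and Klf4 were thus the most abundant members per length, and Fosb was close to the limit of detection. The exon lengths came from an annotation of GRCm38, whereas the reads had been aligned to mm39, so the order of close neighbours is approximate. For Nr4a1 the full length was used, although reads shared with an overlapping gene had been left out.

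The AP-1 members are leucine zipper proteins that bind DNA as dimers. Fos (ENSMUSG00000021250, mm39 chr12:85520664-85524047), the inducible partner of the JUN proteins, had normalized read counts of 14, 14, 27 and 9 in WT, against 23, 18, 21 and 19 in Mettl3 KO hearts. All 4 Mettl3 KO libraries lay between the highest WT library and the remaining WT libraries, and the fitted log2 fold change of Mettl3 KO over WT was 0.42 ± 0.27 (SE, limma, adjusted p = 0.421). Single WT libraries moved this value, which was 0.69 without replicate 3 and 0.20 without replicate 4 and passed in neither case. Fosb (ENSMUSG00000003545, chr7:19036621-19043976), which takes the place of FOS in such dimers, had 4, 3, 3 and 3 in WT, against 7, 3, 4 and 5 in Mettl3 KO. A floor of 3 reads corresponded to 2.78 to 3.33 normalized counts, so that a difference in Fosb could hardly be detected at this depth (log2 fold change 0.40 ± 0.38, limma adjusted p = 0.631), and the log2 fold change was 0.22 when Mettl3 KO replicate 1 was left out.

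Jun (ENSMUSG00000052684, chr4:94937271-94940459), the principal partner of FOS, had 246, 274, 223 and 277 in WT, against 277, 285, 300 and 294 in Mettl3 KO. The genotypes touched at 277 and were otherwise separate, with all 4 Mettl3 KO libraries at or above the highest WT library. Its log2 fold change was 0.18 ± 0.07 (SE; 95% confidence interval 0.04 to 0.33), with an unadjusted p of 0.0155 and an adjusted p of 0.121 in limma, and a fold of 1.14. With its lowest library, WT replicate 3, left out, the value was 0.12 (limma adjusted p = 0.345). Junb (ENSMUSG00000052837, chr8:85701113-85705347), a weaker activator that also restrains JUN, had 37, 33, 59 and 36 in WT, against 48, 47, 33 and 48 in Mettl3 KO. In each genotype replicate 3 stood apart from the other libraries, above them in WT and below them in Mettl3 KO, and the log2 fold change was 0.11 ± 0.18 (limma adjusted p = 0.804), with 0.02 (without WT replicate 2) to 0.29 (without WT replicate 3) when single libraries were left out. Jun and Junb overlap Junos and Prdx2 on the opposite strand, and the reads had been counted by strand.

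Egr1 and Klf4 encode zinc finger transcription factors. Egr1 (ENSMUSG00000038418, chr18:34992876-34998037), the classical growth response factor, had 86, 78, 82 and 118 in WT, against 105, 98, 108 and 106 in Mettl3 KO. Its 3 lower WT libraries lay below every Mettl3 KO library and the remaining one, replicate 4, above all of them. The log2 fold change was 0.21 ± 0.11 (SE; 95% confidence interval -0.02 to 0.45; limma adjusted p = 0.310). With WT replicate 4 left out the value rose to 0.34 and passed (limma adjusted p = 0.0497). Dropping the lowest library, WT replicate 2, lowered the value to 0.15, which did not pass (adjusted p = 0.584 in limma). Egr1 passed in 1 of 17 alternative settings. Klf4 (ENSMUSG00000003032, chr4:55527143-55532466), a factor of vascular and stress responses, had 210, 212, 278 and 169 in WT, against 206, 227, 204 and 226 in Mettl3 KO. The means were 217 ± 45.1 (SD, n = 4) and 216 ± 12.4 (n = 4), and the fitted log2 fold change of 0.01 had a 95% confidence interval of -0.20 to 0.22. Its sign turned with limma voom on the deposited values (-0.00078) and without WT replicate 4 (-0.10), Mettl3 KO replicate 2 (-0.01) or Mettl3 KO replicate 4 (-0.01).

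Nr4a1 (ENSMUSG00000023034, chr15:101152150-101172676) encodes an orphan nuclear receptor, also called NUR77. It had 16, 32, 47 and 26 in WT, against 40, 45, 42 and 52 in Mettl3 KO. The Mettl3 KO libraries were above 3 of the 4 WT libraries, and WT replicate 3 lay among them. In the fit, Nr4a1 had a log2 fold change of 0.64 (95% confidence interval 0.17 to 1.11; limma unadjusted p = 0.00931, adjusted p = 0.0874), a fold of 1.56. Without WT replicate 3 the genotypes did not overlap (as for 15.2% of all tested genes), and the log2 fold change was 0.88 with a limma adjusted p of 0.0106. Without WT replicate 1, the lowest library, it was 0.38 with a limma adjusted p of 0.303. Reads shared with an overlapping gene on the same strand (ENSMUSG00000121015) had been left out of the counts.

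Myc (ENSMUSG00000022346, chr15:61857240-61862223), the basic helix-loop-helix factor that dimerizes with MAX and promotes growth, had 5, 17, 6 and 16 in WT, against 12, 17, 18 and 27 in Mettl3 KO. The WT libraries formed a low and a high pair, and the high pair lay among the Mettl3 KO libraries. With all 8 libraries it had the largest log2 fold change of the 10 members, 0.82 ± 0.34 (SE; 95% confidence interval 0.10 to 1.53), and a fold of 1.76. With an unadjusted p of 0.0266 and an adjusted p of 0.169 (limma), it did not pass the test. Leaving out single libraries gave 0.54 (without WT replicate 1) to 1.07 (without WT replicate 2), and without WT replicate 3 its 0.62 was below the 0.88 of Nr4a1 and the 0.69 of Fos.

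Ier3 (ENSMUSG00000003541, chr17:36132576-36133815), also known as IEX-1, is a small protein linked to cell survival. It had 34, 30, 47 and 36 in WT, against 60, 42, 47 and 60 in Mettl3 KO, and WT replicate 3 was level with one Mettl3 KO library and above another. For Ier3, the fit gave a log2 fold change of 0.50 ± 0.16 (SE; 95% confidence interval 0.16 to 0.84), a fold of 1.41. Its adjusted p of 0.0669 (limma) was the lowest of the 10 members. Without WT replicate 3 the genotypes did not overlap, a separation then seen in 15.2% of all tested genes. The log2 fold change of 0.62 passed in that setting with a limma adjusted p of 0.0262. Dropping the lowest library, WT replicate 2, lowered the value to 0.41, which did not pass (adjusted p = 0.197 in limma). Ier3 passed in 1 of 17 alternative settings. Ier2 (ENSMUSG00000053560, chr8:85387960-85389483), a nuclear protein of the same early wave, had 28, 21, 20 and 19 in WT, against 21, 28, 29 and 21 in Mettl3 KO. Its genotypes overlapped over most of their range (log2 fold change 0.16 ± 0.20, limma adjusted p = 0.735), and single libraries moved the value from 0.08 (without Mettl3 KO replicate 3) to 0.28 (without WT replicate 1).

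**Figure D1:**
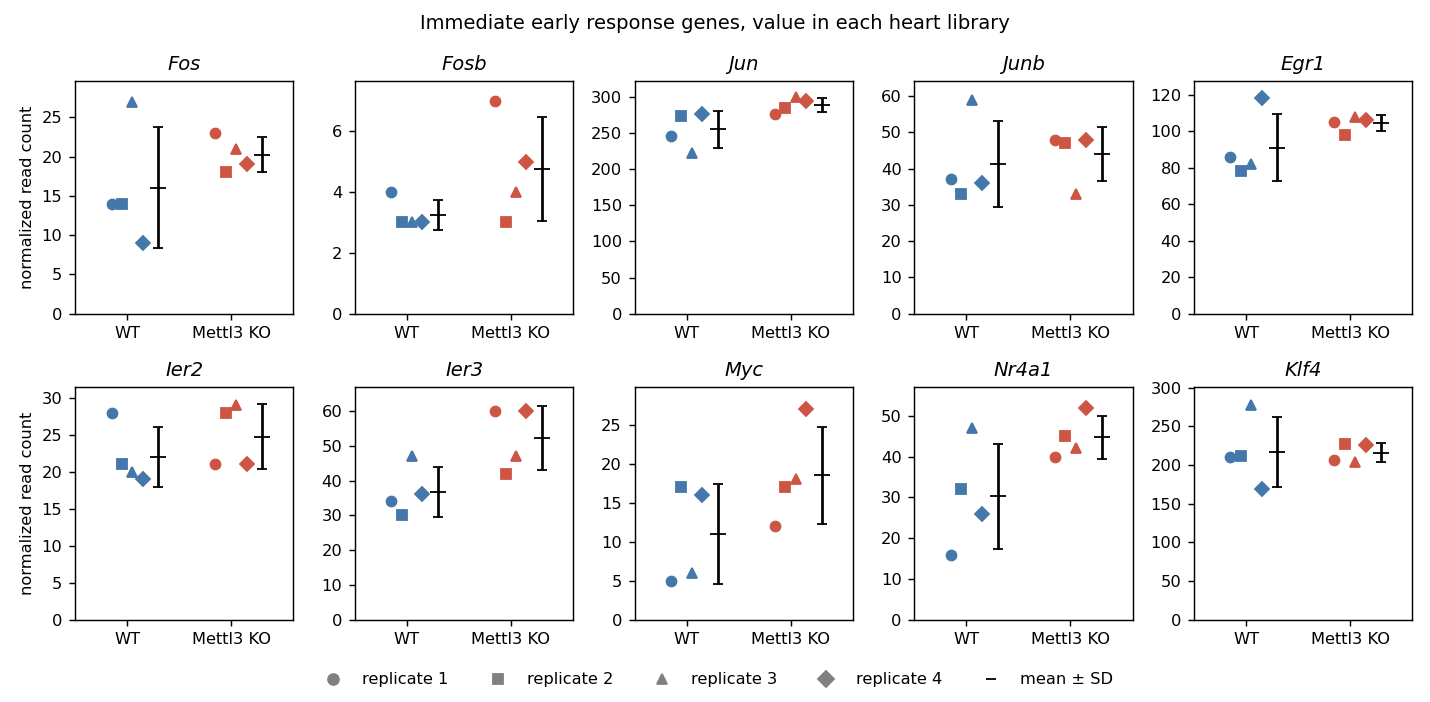
Normalized read count (vertical axis, from 0) of each of the 10 genes in 4 WT (blue) and 4 Mettl3 KO (red) libraries, with the marker giving the replicate number and the bar the mean ± SD. The WT points of Fos and Klf4 were spread widely around the tighter Mettl3 KO points, those of Nr4a1 lay mostly below them, and WT replicate 3 was the highest WT library for Fos, Junb, Ier3, Nr4a1 and Klf4.

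As a set, 0 of the 10 members passed at an adjusted p under 0.05 (limma, and limma voom on the deposited values or the recovered reads), beside 7.91% of all tested genes. At an unadjusted p under 0.05 there were 4 (Ier3, Nr4a1, Jun and Myc), beside 20.6% of all. No member had genotypes that did not overlap, beside 11.5% of all tested genes. The log2 fold change was above 0 in 10 of 10 members (9 of 10 with limma voom on the deposited values, where Klf4 was below 0) and in 48.2% of all, with a median of 0.30 over the members and -0.01 over all tested genes. The members share libraries and inducers, so that their common sign is not 10 separate observations.

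The confidence intervals show what sizes of difference these libraries allow. For 7 of the 10 members the 95% interval lay below a doubling in Mettl3 KO, the exceptions being Myc, Nr4a1 and Fosb, and for 6 of the 10 it included 0. As a check on single genes, an exact permutation test of the difference in level over the 70 ways of assigning 8 libraries to genotypes, which cannot give a two-sided p below 0.0286, gave 0.0571 for Jun, 0.0857 for Ier3, 0.114 for Nr4a1 and 0.171 for Myc.

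**Figure D2:**
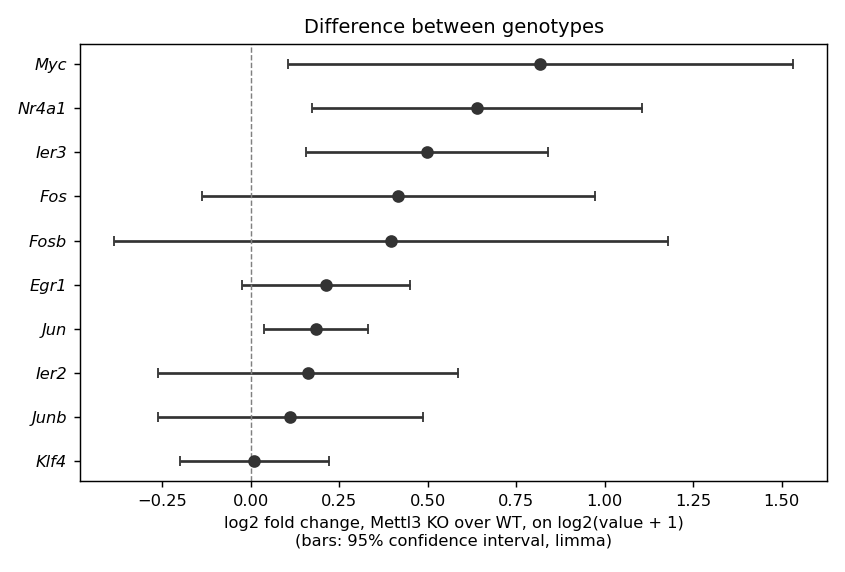
Log2 fold change of Mettl3 KO over WT on the log2(value + 1) scale (horizontal axis) for each gene, with 95% confidence intervals from limma over 4 libraries per genotype. All 10 points lie above 0 (Klf4 at 0.01, which was below 0 with limma voom on the deposited values), and the intervals of Myc, Nr4a1, Ier3 and Jun do not reach 0.

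The library that stood out differed from gene to gene. WT replicate 3 was the highest WT library for 5 members (Fos, Junb, Ier3, Nr4a1 and Klf4) and the lowest for Jun. WT replicate 1 was the lowest for Myc and Nr4a1. WT replicate 4 was the highest for Jun and Egr1 and the lowest for Fos, Ier2 and Klf4. The WT libraries thus did not fall into one that was high and one that was low throughout. Averaged over the 10 members, the deviation of log2(value + 1) from the genotype mean was -0.14, 0.01, 0.17 and -0.04 in WT replicates 1 to 4 and 0.00, -0.07, -0.04 and 0.11 in Mettl3 KO replicates 1 to 4. The summed value of the members was 680, 714, 792 and 709 in WT, against 799, 810, 806 and 858 in Mettl3 KO, a sum made up mostly of Jun and Klf4. At this scaling every Mettl3 KO sum was above every WT sum, the nearest being 792 (WT replicate 3) and 799 (Mettl3 KO replicate 1). The totals of these libraries were 2881849 and 2916986. With each sum divided by its library total, their order turned and the genotypes overlapped.

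**Figure D3:**
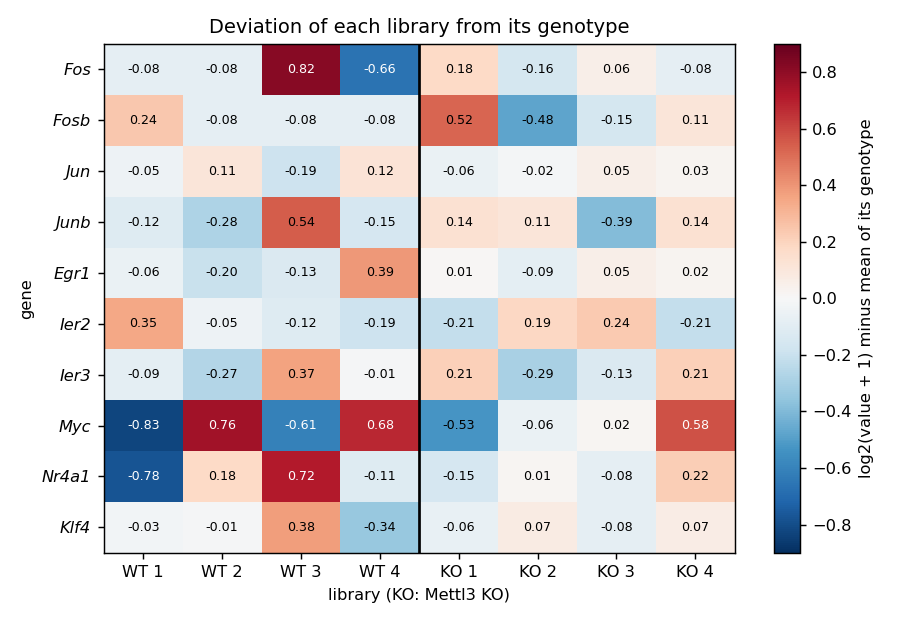
Deviation of log2(value + 1) from the mean of its own genotype for each gene (rows) and library (columns), red above and blue below. In WT replicate 3, Fos (0.82), Nr4a1 (0.72) and Junb (0.54) were high while Myc (-0.61) and Jun (-0.19) were low, and the deviations of Jun, Egr1 and Klf4 in the Mettl3 KO libraries were within 0.09 of 0.

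The spread between libraries was compared next. The SD of log2(value + 1) was larger in WT for 8 of the 10 members, beside 47.9% of all tested genes. It was 0.62 in WT and 0.16 in Mettl3 KO for Nr4a1, 0.61 and 0.15 for Fos, 0.29 and 0.08 for Klf4, 0.27 and 0.06 for Egr1, and 0.15 and 0.05 for Jun. Myc varied in both genotypes, with 0.83 and 0.45. For Ier2 (0.24 and 0.25) and Ier3 (0.27 and 0.25) the genotypes had nearly the same SD. Fosb (0.16 and 0.42) was the one member with a clearly larger SD in Mettl3 KO, at values of 3 to 7.

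Counting error alone gives a variance over mean close to what 1 read is worth in a library, 0.927 to 1.11 normalized counts. For Klf4 the ratio was 9.36 in WT and 0.718 in Mettl3 KO, for Nr4a1 5.56 and 0.616, for Fos 3.71 and 0.243, for Egr1 3.68 and 0.181, and for Jun 2.55 and 0.353. For these 5 genes the ratio was above the counting value in WT and below it in Mettl3 KO, over 4 libraries each. It was above it in both genotypes for Myc (3.70 and 2.11), Junb (3.46 and 1.23) and Ier3 (1.44 and 1.61), and below it in both for Ier2 (0.758 and 0.764) and Fosb (0.0769 and 0.614). These ratios are descriptions, and the test of spread between the genotypes follows.

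An exact permutation test of the absolute deviations from the genotype median, two-sided and over the same 70 assignments, gave 0.0286 for Jun and Myc, the smallest p it can give, and 0.171 to 0.657 for the other members. An unadjusted p under 0.05 was thus found in 2 of 10 members and in 7.75% of all tested genes. After adjustment over all tested genes the values of Jun and Myc were 0.368, the lowest that any gene reached, because every gene at the smallest p shares it. With 4 libraries per genotype no gene could pass after adjustment, so this says nothing for or against a difference in spread. The number under 0.05 was 1 of 10 with a pseudocount of 5 and 1 of 10 on the linear scale.

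**Figure D4:**
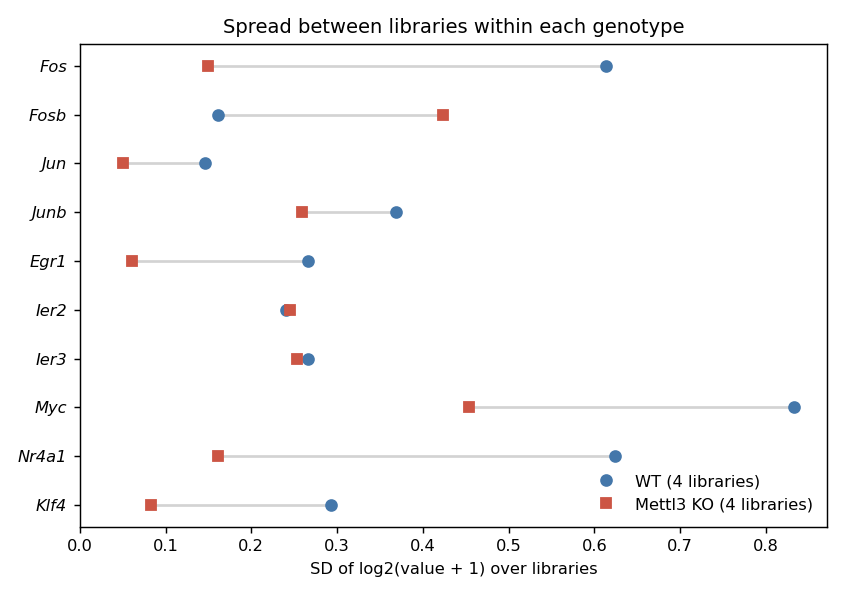
SD of log2(value + 1) over the 4 WT (blue circles) and the 4 Mettl3 KO (red squares) libraries for each gene. The circle lies to the right of the square for 8 genes, most widely for Fos and Nr4a1, and to the left for Fosb and, barely, Ier2.

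Against genes of similar level, the residual variance of a member within genotypes was above the fitted mean-variance trend in 8 of the 10, with a median ratio of 1.68 (0.920 over all tested genes). Klf4 (98.4th percentile of all tested genes), Nr4a1 (97.3rd) and Myc (95.8th) were above the 95th percentile. Fosb (6.15th percentile) and Ier2 (29.4th) were below the trend.

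Genes with the most similar pattern over the libraries were searched among 13786 genes whose mean value reached 10, by the root mean square difference of their deviations from the genotype mean over the 8 libraries. For Myc, the member with the largest residual SD, these were Kif15 (0.138), Iqgap3 (0.171), Gm49783 (0.216), Slc1a4 (0.228) and B3galt2 (0.241), beside a root mean square deviation of 0.581 for Myc itself. Kif15 had 17, 49, 20 and 42 in WT, against 18, 20, 21 and 29 in Mettl3 KO, with the same pair of high WT libraries. For the mean deviation over the 10 members they were Tmem50a, Denn2b, Prkg1, Evi5l and Nudt2, at 0.0341 to 0.0397. The similarity was chosen by searching, and no test applies to it.

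Other early genes, their inducers and their brakes were read from wider lists. Of 36 other immediate early genes, 35 were tested. Of these, 4 rose (11.4%, beside 4.72% of all tested genes that were higher), 0 fell and 25 had a log2 fold change above 0, with a median of 0.10. Jund, the AP-1 member that is expressed without a stimulus, was nevertheless counted in this list. It had 132, 142, 144 and 171 in WT, against 196, 186, 201 and 206 in Mettl3 KO, with no overlap (log2 fold change 0.42, limma adjusted p = 0.00175). Tiparp, an ADP-ribosyltransferase induced through the aryl hydrocarbon receptor, had 139, 111, 157 and 111 in WT, against 174, 173, 193 and 171 in Mettl3 KO (0.47, limma adjusted p = 0.0040). Cebpd, a leucine zipper factor of the acute phase, had 53, 43, 44 and 40 in WT, against 59, 81, 78 and 63 in Mettl3 KO (0.63, limma adjusted p = 0.0055). These 3 of the 35 did not overlap between genotypes, beside 11.5% of all tested genes. Ier5, a relative of Ier2, had 84, 107, 88 and 92 in WT, against 116, 99, 132 and 128 in Mettl3 KO, with an overlap (0.35, limma adjusted p = 0.0441). Jund, Tiparp and Cebpd passed in all 17 alternative settings, and Ier5 in 7 of them.

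Of 25 genes of the inducing pathways (SRF, MRTF and ternary complex factors, CREB and its coactivators, MAP kinases), 0 passed in limma, beside 7.91% of all tested genes. Of the 25, 4 had an unadjusted p under 0.05 (20.6% of all tested genes did), and the median log2 fold change was 0.00. The lowest p belonged to a pair of ternary complex factors that bind DNA with SRF. Elk3 had 243, 239, 228 and 236 in WT, against 224, 199, 190 and 207 in Mettl3 KO, with no overlap (log2 fold change -0.21, limma adjusted p = 0.0660). Elk1 had 92, 106, 80 and 104 in WT, against 112, 122, 133 and 106 in Mettl3 KO, meeting at 106 (0.31, limma adjusted p = 0.0761). Elk3 passed when Mettl3 KO replicate 1 was left out (-0.25, limma adjusted p = 0.0255) and when genes with a mean value under 10 were not tested (limma adjusted p = 0.0471), and Elk1 passed in 0 of 17 alternative settings. Srf had 189 to 205 in WT, against 213 to 229 in Mettl3 KO, which did not overlap, and did not pass either (log2 fold change 0.15, limma adjusted p = 0.185). Elk3 and Srf were the 2 of the 25 without overlap, beside 11.5% of all tested genes.

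Of 21 genes of feedback and mRNA decay (phosphatases of MAP kinases, Sprouty and SPRED proteins, EGR corepressors, AU-rich element binding proteins), 2 rose (9.52%, beside 4.72% of all tested genes that were higher), 0 fell and the median was 0.07. Spred1, an inhibitor of RAS signalling, had 370, 364, 347 and 368 in WT, against 420, 415, 436 and 442 in Mettl3 KO (log2 fold change 0.24, limma adjusted p = 0.00511), and it passed in all 17 alternative settings. Dusp16, a phosphatase of JNK, had 256, 266, 240 and 250 in WT, against 266, 299, 310 and 305 in Mettl3 KO, meeting at 266 (0.22, limma adjusted p = 0.0397), and it passed in 8 of the 17.

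Of 13 dimer partners of the members and other proteins of the MAX network (such as Mxd1 and Mnt, which pair with MAX in place of MYC), 0 passed in limma, beside 7.91% of all tested genes. An unadjusted p under 0.05 was found in 0 of the 13, beside 20.6% of all, and the median was -0.08. The lowest p belonged to Atf7 (log2 fold change -0.13) and to Batf3 (0.97, at values of 1 to 12, with 0.51 to 1.40 over the alternative settings). Of 6 heat shock genes, which tissue handling can also induce, 0 passed (7.91% of all tested genes did). Of the 6, 0 had an unadjusted p under 0.05 (20.6% of all tested genes did), and the median was -0.05. Hspa8 had 448, 449, 346 and 332 in WT, against 358, 462, 347 and 304 in Mettl3 KO, and Dnajb1 58 to 68 in WT, against 49 to 70 in Mettl3 KO. Of the 6, Hspa1a (6, 6, 10 and 5 in WT) and Hspb1 (30, 36, 42 and 41) were highest in WT replicate 3, Hsph1 (292, 352, 352 and 313) was level in replicates 2 and 3, and Hspa8, Dnajb1 and Hspa1b were highest in replicate 2. The part of tissue handling in these values was not tested.

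**Figure D5:**
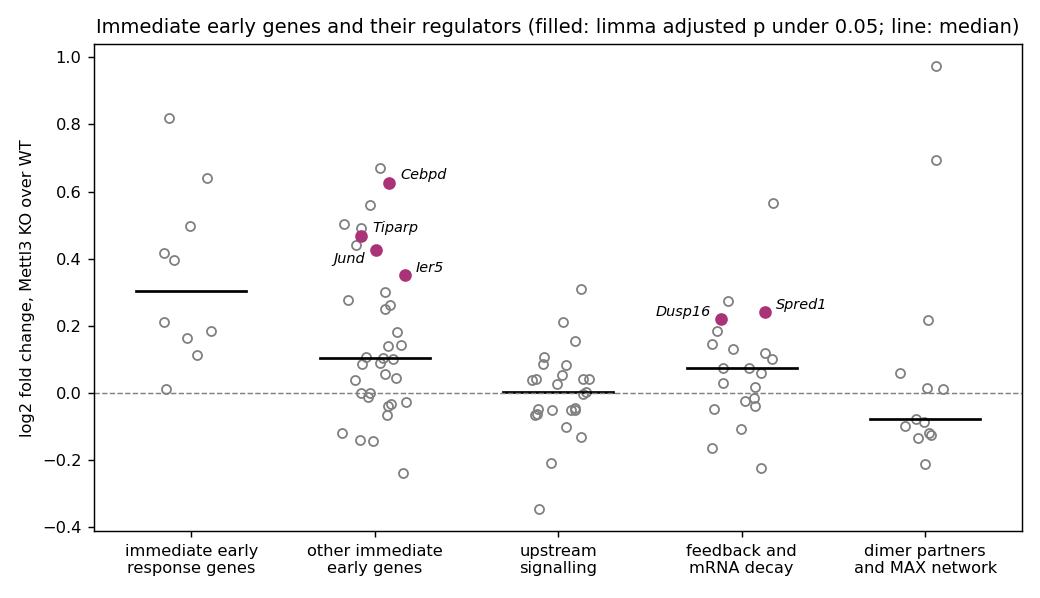
Log2 fold change of Mettl3 KO over WT (vertical axis) for each tested gene of 5 lists, with filled points for a limma adjusted p under 0.05 and a line at the median. The medians were 0.30 for the immediate early response genes, 0.10 for the other immediate early genes, 0.00 for upstream signalling, 0.07 for feedback and mRNA decay, and -0.08 for the dimer partners and MAX network.

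Markers of several cell types moved with genotype or with a library. Of 6 fibroblast markers 5 rose, beside 4.72% of all tested genes that were higher (summed values 2396 to 2678 in WT, 3064 to 3393 in Mettl3 KO). Of 6 endothelial markers 3 fell, beside 3.19% of all that were lower (3956 to 4182 in WT, 3451 to 3781 in Mettl3 KO). Of 6 atrial markers 5 rose, beside the same 4.72% of all tested genes. Their sums were 435, 392, 195 and 433 in WT, against 600, 992, 1096 and 1450 in Mettl3 KO. Nppa alone did not overlap between genotypes (1 of 6, beside 11.5% of all tested genes). In Mettl3 KO replicate 1, Myl7 (23), Sln (10), Myl4 (113) and Fgf12 (2) were no higher than the highest WT library. WT replicate 3, in which 5 members were highest, had the lowest atrial sum, with Myl7 and Sln at 0, and Bmp10 was at 0 in every WT library and in Mettl3 KO replicate 1. Of 6 cardiomyocyte markers 1 fell (Ryr2), beside 3.19% of all tested genes. Macrophage, smooth muscle, lymphocyte, neutrophil and blood markers had 0 members that passed in limma, beside 7.91% of all tested genes. Among these markers, 2 of smooth muscle and 2 of blood had an unadjusted p under 0.05, beside 20.6% of all tested genes. Macrophage sums were 828 to 1008 in WT, against 812 to 1003 in Mettl3 KO. The part of these markers in the values of the immediate early response genes was not tested.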

How the data were processed

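Stranded single-end libraries had been made from total heart RNA. The authors trimmed reads with Trimmomatic 0.39, aligned them to mm39 with STAR 2.7.11a, removed duplicates with Picard 3.1.1, counted exonic reads by strand with featureCounts 2.0.4 and left out reads shared by several genes. The authors normalized these counts with DESeq2 1.36.0. Removing duplicates of single-end reads lowers short, abundant transcripts.

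The deposited values are treated as a score, normalized counts rounded to whole numbers. A test for raw counts was therefore not run. Factors of 0.927 to 1.11 per library were estimated from the spacing of low values, giving 2731618 to 3061209 reads in WT and 2631904 to 3052899 in Mettl3 KO libraries. A floor of 3 reads, which covers counting error only, was a CPM of 0.980 to 1.14.

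After genes with a mean value under 1 had been left out, limma 3.58.1 (R 4.3.3) was run on log2(value + 1). Genotype was its single term, and the prior variance followed a trend with the mean. Tests were two-sided, and p was adjusted by Benjamini-Hochberg over all 20313 genes. The log2(value + 1) scale understates changes of low genes. Spread was tested by exact permutation and adjusted over all genes, where the design had named the members alone. Simulated data with 200 genes changed by 1 log2 gave 61.5% recovery overall and 88.9% for the 63 with mean values of 10 to 100, at a dispersion of 0.005. With all 8 libraries, that change is larger than the fitted change of any member, and these rates do not cover smaller ones. They also do not cover genes that vary more between libraries than was simulated. Of the 10 members, 8 had a residual variance above the fitted mean-variance trend.

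All members were named. From each pathway list every gene with an adjusted p under 0.05, and otherwise the 2 with the lowest p, were named. Cell type markers were read as summed values and counts per list. Srf, Hspa1a, Hspa1b, Hspb1 and Hsph1 were named after their values were seen. From the list of inducing pathways 1 gene was omitted, which is not reported here. The members, lists and rules were chosen with earlier results of these data known. Exon lengths came from an annotation of GRCm38 matched by gene identifier, and none of its coordinates was used. Alternatives tried were limma voom, other scalings, pseudocounts and filters, robust fitting, a block on the replicate number, and leaving out single libraries. All 8 value columns of the table were used.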

Additional observations from a re-analysis of the deposited data

Results flagged for a closer look

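Within each genotype, the highest or lowest library was singled out where its distance to the next one, divided by the range of the group, exceeded the 95% limit for 4 samples. The search covered 48 groups, 24 named genes in 2 genotypes, and singled out 5, where chance gives about 2.4. WT replicate 3 was the highest WT library for Junb, at 59 beside 33 to 37 (gap over range 0.846). Mettl3 KO replicate 3 was the lowest for Junb, at 33 beside 47 to 48 (0.933). Mettl3 KO replicate 3 was the highest for Tiparp, at 193 beside 171 to 174 (0.864). Mettl3 KO replicate 4 was the highest for Atf7, at 273 beside 255 to 258 (0.833). WT replicate 1 was singled out for Fosb (1), where a value of 4 stood beside 3 in every other WT library, which is within counting error.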

How the results depend on the processing

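No member passed in limma in any setting that kept all 8 libraries, and the number of genes called was 1526 to 1687 there except 1346 with the replicate number as a block. With each library left out in turn, 0 to 2 members and 1019 to 1596 genes were called, the lowest without Mettl3 KO replicate 3. Nr4a1 (0.88) and Ier3 (0.62) passed without WT replicate 3, and Egr1 (0.34, limma adjusted p = 0.0497) without WT replicate 4. Members without overlap numbered 0 to 3: Fos, Ier3 and Nr4a1 without WT replicate 3, Jun and Egr1 without WT replicate 4, and Jun without Mettl3 KO replicate 1, beside 14.3% to 16.3% of all tested genes with 1 library left out. Members with the larger SD in WT numbered 7 to 9 (this alternative was chosen after seeing the data). Those with an unadjusted spread p under 0.05 numbered 1 with a pseudocount of 5 and 1 on the linear scale, where the main count was 2. The log2 fold change turned sign for Klf4 with voom on the deposited values (-0.00078) and without WT replicate 4 (-0.10), Mettl3 KO replicate 2 (-0.01) or Mettl3 KO replicate 4 (-0.01), with a range of -0.10 to 0.14 over the libraries left out, and for Dnajb1 without Mettl3 KO replicate 1 (0.0031), with a range of -0.17 to 0.0031. The cause was not tested. Replicate numbers did not pair the libraries, as the same-number correlations of deviations across 13795 genes were 0.067, 0.034, -0.024 and 0.062, and under the replicate block 0 members passed while Ier5 and Dusp16 no longer did. Of the log2 fold changes of named genes recomputed in each setting, 377 kept their direction and their side of the threshold, 19 no longer passed, 5 newly passed and 5 turned sign. At values of 3 to 7, as for Fosb, counting error limits what could be detected.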

Other observations

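Since Kif15 and Iqgap3, kinesin and scaffold genes of dividing cells, were nearest to Myc, 10 cell cycle genes were read as well, a list chosen after those values were seen. Their summed value was 1051, 1254, 772 and 1066 in WT, against 732, 741, 556 and 718 in Mettl3 KO. All 10 had a log2 fold change below 0 (48.2% of all tested genes were above 0), and 2 fell, beside 3.19% of all: Cenpf, a centromere protein (-0.73, limma adjusted p = 4.98e-06), and Cdk1, the mitotic kinase (-1.17, limma adjusted p = 0.0201). Mki67 had 321, 491, 200 and 385 in WT, against 285, 270, 204 and 268 in Mettl3 KO. In WT, Mki67 and Myc were both highest in replicate 2 and next highest in replicate 4, whereas between genotypes their log2 fold changes had opposite signs (-0.38 for Mki67 and 0.82 for Myc), neither past the threshold.

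Egr1 and Nr4a1 were not high in the same WT library: Egr1 was highest in replicate 4 (118) and Nr4a1 in replicate 3 (47). Fos was highest in replicate 3 (27) and lowest in replicate 4 (9).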
